A study of Mus musculus with 6 samples.

Results

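The 9 mouse genes Enc1, Islr2, Fam171a2, Hs6st2, Zfp292, Slc25a51, Msantd3, Sumo3 and Med4 were read in RNA from the corpus callosum of mice with a conditional knockout (cKO) of Mettl14 and of wild-type (WT) mice. They are 9 of the 24411 genes, and 26 of the 35034 transcripts, in the quantification tables. They were picked by name because their counts in the cKO libraries lay far above those in the WT libraries, so the difference between cKO and WT is given below as a description, with no test. Of the 9, 7 had 5 or fewer counts in every WT library, Fam171a2 had 19 to 23, and Islr2 was well expressed in both genotypes. The working name for the set was neuronal genes, which fits Enc1, Islr2, Fam171a2 and Hs6st2, known from developing neurons. Zfp292, Slc25a51, Msantd3, Sumo3 and Med4 are known to be made in many tissues. Bulk tissue does not show which cells held the RNA of any of the 9 genes.

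The series asked what the m6A mark does in growing axons. There were 3 libraries labelled Mettl14 cKO and 3 labelled WT, all from B6 mice on postnatal day 4. The callosum was cut by hand out of cryostat sections 60 µm thick, and polyadenylated RNA was sequenced. The sources used here do not name the Cre line that deleted Mettl14 or the cells in which it acts. Hand-cut tissue holds glia and vessels besides axons. Nothing in the labels says that each library came from its own animal, so any p-value below measures only the spread between these libraries.

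The corpus callosum carries the axons that join the cortical hemispheres, and in the first days after birth most of these axons are still crossing or waiting in the white matter. METTL14 holds the RNA in the enzyme complex in which METTL3 places the methyl group of m6A, mostly on the adenosine of short motifs such as GGACT, and reader proteins bound to m6A often shorten the life of an mRNA. The 9 genes act at different places in a cell. Enc1 and Islr2 belong to the cytoskeleton and the surface of growing neurons, Hs6st2 shapes the sugar chains outside the cell, Slc25a51 serves mitochondria, and Zfp292, Msantd3, Sumo3 and Med4 act mainly in the nucleus.

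Total expected counts, the numbers of fragments that the quantifier assigned, ran from 670462 to 1208382 in cKO libraries and from 843647 to 1268430 in WT libraries. A single count was worth 0.803 to 1.41 CPM, which here means counts scaled to a common library size, so 0 counts allows up to 2.41 to 4.24 CPM (3 counts, counting error only). Both libraries numbered replicate 2 were the deepest and had the shortest mean fragments, 292.7 bases in cKO and 304.3 bases in WT, against 332.4 to 350.5 bases in the other libraries. Mettl14 had 2, 7 and 2 counts in cKO replicates 1 to 3, against 11, 8 and 5 counts in WT replicates 1 to 3, too few for the test and with overlapping ranges, and the sources used here do not name the deleted exons. Xist, which coats the silenced X chromosome of females, had 2970, 2323 and 4618 counts in cKO and 0 in every WT library, whereas 4 Y-linked genes were at 0 in every cKO library and summed to 85.1 to 189 CPM in WT libraries. Sex and genotype therefore cannot be told apart in these libraries, for any value below.

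Sites of the GGACT motif, where m6A can be placed, were read in the longest GENCODE transcript of each gene. For Islr2, Hs6st2, Msantd3 and Sumo3, which have several transcripts, this need not be the transcript with the most counts. The 9 transcripts held 32 of them, 18 in coding sequence, 13 in a 3′ UTR and 1 in a 5′ UTR. Those of Enc1, which had the most cKO counts, and of Sumo3 and Med4, which hold 1 each, are printed with 10 bases on either side. The motif is in capitals, and the number is its first base in the transcript.
Enc1 at 2103, coding sequence: gcaagactttGGACTgttacgaccc
Enc1 at 2734, 3′ UTR: gggaaccccaGGACTctccactcat
Enc1 at 3969, 3′ UTR: atgagtaagtGGACTgtagttggac
Sumo3 at 1391, 3′ UTR: tcattctcacGGACTgtgctgtgca
Med4 at 258, coding sequence: accgagatggGGACTtccaagaact

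Per kilobase, the motif stood in the 9 transcripts at 1.88 in Msantd3, 1.28 in Fam171a2, 1.13 in Slc25a51, 0.93 in Islr2, 0.919 in Hs6st2, 0.753 in Med4, 0.701 in Zfp292, 0.633 in Enc1 and 0.38 in Sumo3. The median over the 5893 tested genes with a transcript in the annotation was 1.043 per kilobase, and 3 of the 9 lay above it. A motif match is no measurement of methylation, and no m6A data were used here.

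Promoter windows of 300 bases, from 250 before to 50 after the RefSeq start (GRCm38.p6), were at hand for Hs6st2, Zfp292, Med4, Islr2, Msantd3 and Sumo3. Islr2, Msantd3 and Sumo3 had 3 windows each and Hs6st2 had 2. For each gene only the window nearest to the 5′ end of its transcript with the most cKO counts was used. These windows were searched on both strands for the NEUROD motif CAGATG, the MYC and USF motif CACGTG, the POU octamer ATGCAAAT, the ETS motif CCGGAAG, the NRF1 motif GCGCATG and the TATA box TATAAA. Windows with a match, those of Zfp292, Hs6st2 and Med4, are printed. The matches are in capitals and do not overlap.
Zfp292, chr4:34882899-34883198, minus strand: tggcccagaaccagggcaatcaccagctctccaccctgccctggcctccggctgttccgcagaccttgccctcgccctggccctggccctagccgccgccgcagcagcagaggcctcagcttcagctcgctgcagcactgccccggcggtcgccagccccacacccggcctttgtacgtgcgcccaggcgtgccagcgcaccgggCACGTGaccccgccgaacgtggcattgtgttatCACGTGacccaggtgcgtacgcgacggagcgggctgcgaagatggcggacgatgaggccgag
Hs6st2, chrX:51681553-51681852, minus strand: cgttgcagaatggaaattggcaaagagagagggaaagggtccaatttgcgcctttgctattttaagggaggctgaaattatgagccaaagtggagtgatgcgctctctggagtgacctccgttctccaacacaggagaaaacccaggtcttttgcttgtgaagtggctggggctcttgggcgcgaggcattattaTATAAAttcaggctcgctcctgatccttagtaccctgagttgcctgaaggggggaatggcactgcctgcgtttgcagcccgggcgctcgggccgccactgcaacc
Med4, chr14:73509799-73510098, plus strand: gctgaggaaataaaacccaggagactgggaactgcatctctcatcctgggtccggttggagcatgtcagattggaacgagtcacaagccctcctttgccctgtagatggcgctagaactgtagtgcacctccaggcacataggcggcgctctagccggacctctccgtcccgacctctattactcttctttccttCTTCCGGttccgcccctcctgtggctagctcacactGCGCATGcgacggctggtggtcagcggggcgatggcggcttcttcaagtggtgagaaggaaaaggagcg

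Zfp292 had CACGTG at -45 and again at -12, counted from the start site. Hs6st2 had TATAAA at -55. Med4 had CTTCCGG, the reverse complement of CCGGAAG, at -55 and GCGCATG at -19. Among the 6293 windows of tested genes, CACGTG was in 10.4%, TATAAA in 6.34%, CCGGAAG in 18.0%, GCGCATG in 7.29%, CAGATG in 10.9% and ATGCAAAT in 1.11%, and no motif was shared by any pair of the 6 windows. The searched windows of Islr2, Msantd3 and Sumo3 held none of these motifs, and the other windows of these genes were not searched for them singly.

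Enc1 encodes a BTB-Kelch protein that binds actin and is abundant in the developing cortex. Its 3 exons lie on chromosome 13 (GRCm38, 97241105 to 97253040). It had 2779, 2841 and 349 counts in cKO replicates 1 to 3, against 1, 1 and 0 counts in WT replicates 1 to 3. All cKO libraries were far above all WT libraries, but cKO replicate 3 held only 13.2% of the CPM of cKO replicate 1. The mean level was 2358 ± 1675 CPM in cKO and 0.642 ± 0.579 CPM in WT (SD, n = 3 each). The ratio of pooled counts was 3648, with a 95% exact counting interval from 1009 to 30130 that covers counting error only. In bulk tissue, more RNA per cell and more cells that make the RNA cannot be told apart, here and for the genes below.

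Islr2, also called Linx, is a membrane protein with leucine-rich repeats and an immunoglobulin domain. In mice it binds Trk and Ret receptors and is needed for the extension and guidance of axons. Its gene lies on chromosome 9 (58196297 to 58204319) in 4 exons. It had 1708, 1796 and 1864 counts in cKO, against 509, 1048 and 613 counts in WT. The groups did not overlap, and the lowest cKO library was 2.135 times the highest WT library in CPM. Means were 2244 ± 422 CPM in cKO and 709 ± 135 CPM in WT (SD, n = 3 each), a fitted log2 difference of 1.66. Islr2 was thus the only one of the 9 with a sizeable WT level, and the one with the smallest relative difference.

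Fam171a2 encodes a transmembrane protein whose human locus has been linked to the level of progranulin. The gene has 8 exons on chromosome 11 (102436981 to 102447677). It had 696, 725 and 439 counts in cKO, against 23, 19 and 23 counts in WT. Both groups were tight, with every cKO library at least 23.2 times the highest WT library in CPM. The means of 761 ± 160 CPM in cKO and 22.6 ± 6.39 CPM in WT (SD, n = 3 each) gave a fitted log2 difference of 5.07. Besides Islr2 it was the only gene of the set with more than 5 counts in any WT library.

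Hs6st2 encodes a heparan sulfate 6-O-sulfotransferase, which adds sulfate to the heparan sulfate chains that bind growth factors and guidance cues at the cell surface. It lies on the X chromosome (51386637 to 51681705) in 5 exons. It had 336, 433 and 112 counts in cKO, against 3, 2 and 5 counts in WT. The groups were far apart, and cKO replicate 3 was again the lowest cKO library, at 35.1% of the highest in CPM. Means were 348 ± 164 CPM in cKO and 3.60 ± 2.12 CPM in WT (SD, n = 3 each), with a pooled ratio of 107.7 (95% exact counting interval 58.3 to 225).

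Slc25a51 encodes the carrier that brings NAD+ into mitochondria, as shown in human cells. It lies on chromosome 4 (45395923 to 45408917) in 3 exons. It had 207, 337 and 234 counts in cKO, against 2, 0 and 1 counts in WT. Its cKO libraries were the most alike of the 9 genes, with the lowest at 82.5% of the highest in CPM. Means were 316 ± 32.4 CPM in cKO and 1.14 ± 1.12 CPM in WT (SD, n = 3 each). The pooled ratio of 317 (95% exact counting interval 108 to 1540) rests on 3 WT counts, 2 of them in WT replicate 1, and was 667 without that library and 185 without WT replicate 2.

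Zfp292 encodes a large zinc-finger protein, and variants of its human counterpart cause a neurodevelopmental disorder. It lies on chromosome 4 (34803110 to 34882983) in 8 exons. It had 309, 299 and 569 counts in cKO, against 4, 3 and 0 counts in WT. Here cKO replicate 3 was the highest cKO library, the reverse of Enc1 and Hs6st2. Means were 507 ± 265 CPM in cKO and 2.30 ± 2.25 CPM in WT (SD, n = 3 each), and the pooled ratio was 205.5 (95% exact counting interval 99.4 to 512). This rests on 7 WT counts, and the fitted log2 difference was 7.69 over all libraries and 8.43 without WT replicate 1, which holds 4 of them.

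Sumo3 encodes a small protein that is attached to other proteins in the SUMO pathway. On chromosome 10 (77606097 to 77618331) it has 4 exons. It had 129, 161 and 44 counts in cKO, against 1, 0 and 1 counts in WT. The groups were far apart, with cKO replicate 3 lowest. Means were 132 ± 61.0 CPM in cKO and 0.762 ± 0.661 CPM in WT (SD, n = 3 each). The pooled ratio was 204 (95% exact counting interval 56.1 to 1692), and 119 without WT replicate 2.

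Msantd3 encodes a protein with a Myb/SANT-like DNA-binding domain. It lies on chromosome 4 (48539854 to 48565892) in 3 exons. It had 60, 114 and 69 counts in cKO and 0 counts in every WT library. Its mean was 97.5 ± 16.7 CPM in cKO (SD, n = 3), at least 99.0-fold higher than the 3 counts that 0 allows over the WT group, and at least 57.8-fold higher without WT replicate 2, the deepest library.

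Med4 encodes a subunit of the Mediator complex, which joins transcription factors to RNA polymerase II. Its 7 exons span chromosome 14 from 73510049 to 73518545. It had 22, 24 and 13 counts in cKO and 0 counts in every WT library. Its cKO mean of 24.0 ± 5.60 CPM (SD, n = 3) was the lowest of the 9 genes and at least 24.0-fold above 3 counts over the WT group, or at least 14.0-fold without WT replicate 2. At this depth the WT level of Msantd3 and Med4 was not detectable, which is not the same as absent.

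**Figure D1:**
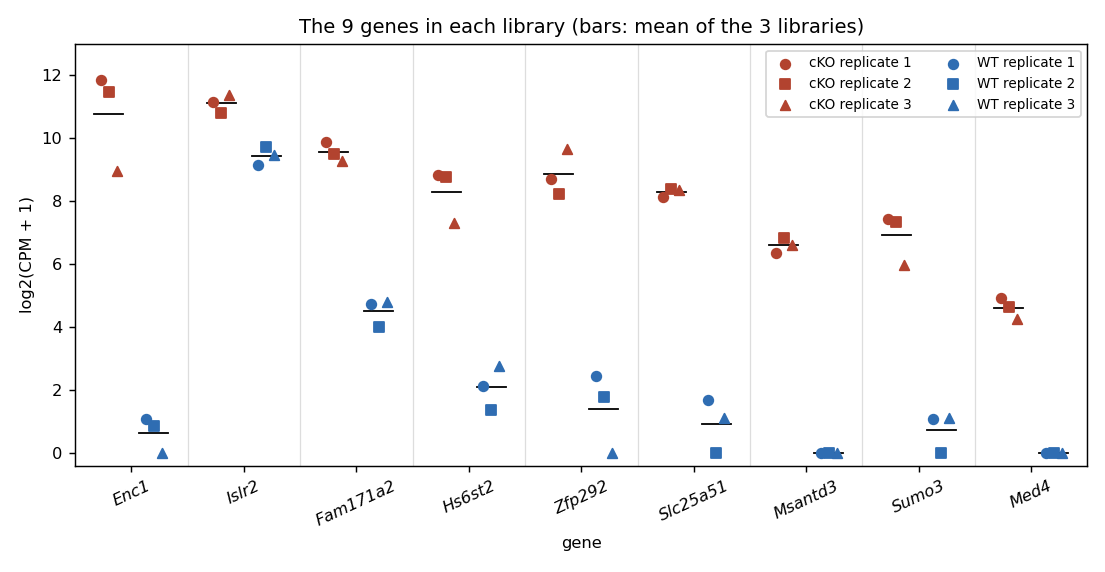
Level of each of the 9 genes in each library, as log2(CPM + 1) on the vertical axis, with cKO libraries left of WT libraries and a bar at the mean of the 3 libraries. For each gene every cKO library lies above every WT library, Islr2 alone is high in WT, and cKO replicate 3 lies below the other cKO libraries for Enc1, Hs6st2 and Sumo3.

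On the TPM scale, which divides by transcript length and so allows genes to be compared, the mean levels in cKO ran in the order Islr2 (813), Enc1 (652), Fam171a2 (356), Hs6st2 (105), Slc25a51 (102), Msantd3 (97.3), Zfp292 (73.1), Sumo3 (71.8) and Med4 (31.8). Islr2, at 588.4 to 1106 TPM over the cKO libraries, and Enc1, at 175.8 to 1005 TPM, overlapped, and Enc1 also overlapped Fam171a2, at 313.8 to 401.7 TPM. Fam171a2 stood clear of Hs6st2, whose highest cKO library had 128.7 TPM. From Hs6st2 to Sumo3 every gene overlapped its neighbours, and Med4, at 28.81 to 36.45 TPM, lay below all of them. By mean TPM in cKO, Islr2 ranked 206, Enc1 251 and Fam171a2 424 among all genes. In WT, Islr2 averaged 268 TPM and Fam171a2 11.0 TPM, and none of the other 7 passed 1.8 TPM in any WT library.

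**Figure D2:**
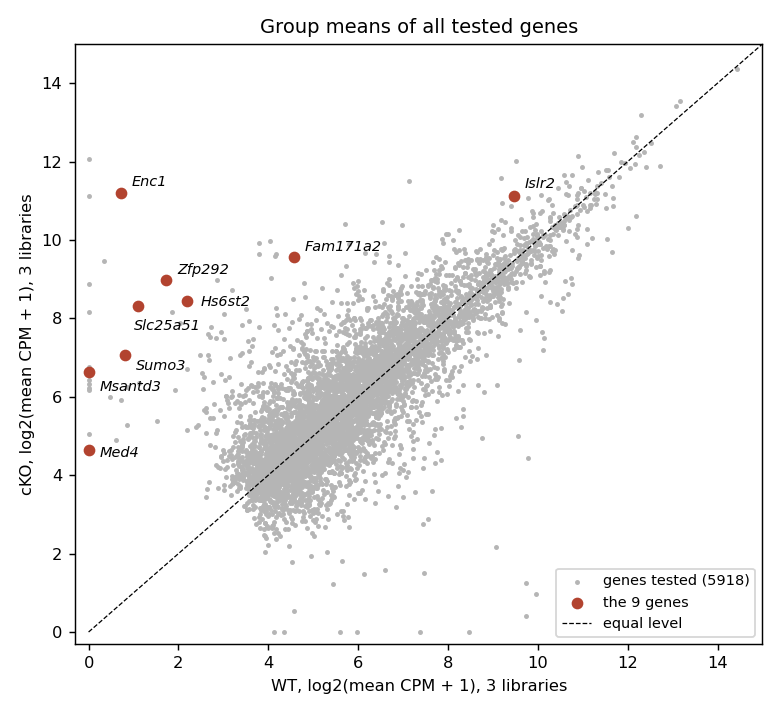
Mean level of the 5918 tested genes in cKO (vertical axis) and WT (horizontal axis), as log2(mean CPM + 1), with the 9 genes in red. All 9 lie above the line of equal level, Islr2 close to it, Fam171a2 between, and the other 7 toward the left edge, where other genes with almost no WT counts also lie.

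How even the cKO libraries were is given as a description, since the contrast that chose the genes favours even replicates. The lowest cKO library held a median of 62.16% of the CPM of the highest over the 9 genes, against 42.99% over all 5918 tested genes, whose quartiles were 21.83% and 62.62%, and nothing is read from this gap. Enc1, Hs6st2, Sumo3 and Zfp292 were the uneven ones, with the lowest library at 13.2% to 37.2% of the highest. The lowest was cKO replicate 3 for 5 of the 9 genes, namely Enc1, Fam171a2, Hs6st2, Sumo3 and Med4. Among 4799 tested genes with a cKO mean of at least 20 CPM, cKO replicate 3 was lowest in 40.43%. Zfp292 and Islr2 were highest in cKO replicate 3. Depth differs between these libraries too, and its part in this was not tested.

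Over all 5918 tested genes, edgeR's quasi-likelihood test called 29 genes higher in cKO (0.49%) and 25 lower (0.422%) at a Benjamini-Hochberg adjusted p below 0.05. All 9 genes were among those called higher, and since this contrast chose them nothing is read from it. Leaving out cKO replicate 1 or WT replicate 3 left 0 calls of any gene by edgeR, with 331 higher and 260 lower at an unadjusted p below 0.05 without cKO replicate 1, and 317 higher and 256 lower without WT replicate 3. Counts without 1 of the other libraries were 6 higher and 4 lower without cKO replicate 2, 28 and 14 without cKO replicate 3, 1 and 0 without WT replicate 1, and 13 and 8 without WT replicate 2. Non-overlapping groups were common. Every cKO library was above every WT library in 10.4% of tested genes, and the reverse held in 9.45%.

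A level of at least 50 CPM in cKO with at most 3 counts over the WT group, the pattern of Enc1, Slc25a51, Msantd3 and Sumo3, was shown by 45 of 3171 genes (1.42%). The opposite, at least 50 CPM in WT with at most 3 counts over cKO, was shown by 15 of 2924 genes (0.513%). At 20 CPM, where Med4 joins them, the shares were 2.566% and 1.084%. The pattern was far more frequent in genes with few exons. It was found in 29 of 274 genes with 3 or fewer exons (10.6%, 95% exact binomial interval 7.20% to 14.9%), Enc1, Slc25a51 and Msantd3 among them, and in 16 of 2881 genes with more exons (0.555%), Sumo3 among them. In the opposite direction it was found in 4 of 170 genes (2.35%) and 11 of 2743 genes (0.401%).

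Genes held at a high level in some libraries were often near 0 in others. Of 5047 genes with at least 50 CPM in some library, 912 (18.07%) had 0 or 1 count in at least 1 library. Among those with 3 or fewer exons the share at 0 or 1 count was 33.7%, 9.62% and 47.3% in cKO replicates 1 to 3 and 53.4%, 22.6% and 49.2% in WT replicates 1 to 3. Among those with more exons it was 1.52% to 6.56% in cKO and 2.05% to 6.47% in WT. Both replicate 2 libraries, the deepest ones, had the lowest shares. Only 15 of the 5047 genes were at 0 or 1 count in every WT library and at 10 or more counts in every cKO library, Enc1, Msantd3 and Sumo3 among them, and 6 genes showed the opposite. The part of exon number and of such near-zero libraries in the low WT counts of the 9 genes was not tested.

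**Figure D3:**
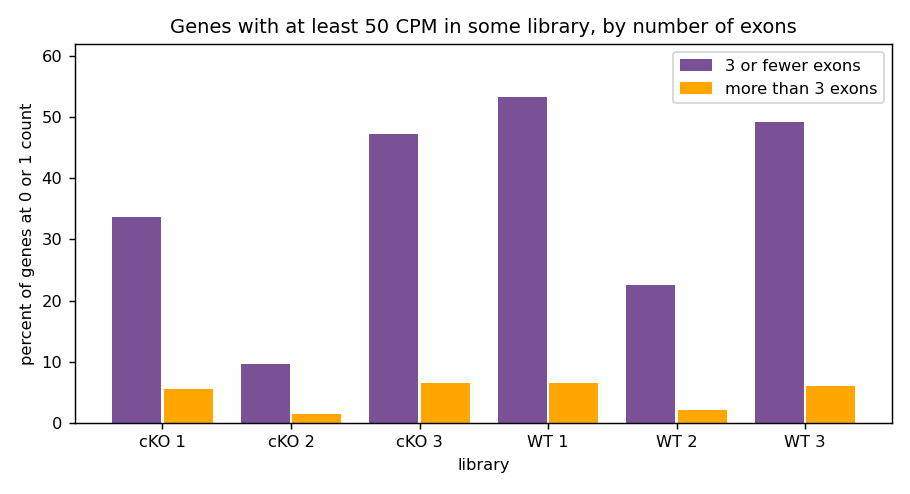
Percent of genes at 0 or 1 count in each library, among genes that reach at least 50 CPM in some library, for genes with 3 or fewer exons and for genes with more. The share is higher for few-exon genes in all 6 libraries and lowest in the replicate 2 libraries, 9.62% in cKO and 22.6% in WT.

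The transcripts behind each gene were read next. Enc1, Fam171a2, Zfp292, Slc25a51 and Med4 have 1 transcript each in the tables, so their gene count is that of the transcript. Islr2 has 8, of which all 8 were assigned counts in cKO and 5 in WT. They share most of their length, so the split between them is an estimate. Transcript NM_001161541 took 48.8%, 44.5% and 7.34% of the Islr2 counts in cKO replicates 1 to 3, against 80.8%, 47.0% and 75.8% in WT replicates 1 to 3. Transcript NM_177193 took 30.5%, 25.6% and 53.7% in cKO, against 19.2%, 29.5% and 4.53% in WT. The ranges of both transcripts overlapped between the genotypes, and cKO replicate 3 was unlike the other cKO libraries.

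Hs6st2 has 4 transcripts, and NM_001290468, with 5 exons, took 81.8%, 85.6% and 71.0% of its counts in cKO and all of the few counts in WT. The 3-exon transcript NM_015819 was assigned counts only in cKO replicate 3 among the 6 libraries, 32.53 of them. Msantd3 has 3 transcripts, and the one with the most counts was NM_001145924 in cKO replicate 1 (95.5%), NM_028137 in cKO replicate 2 (57.5%) and NM_001145925 in cKO replicate 3 (66.6%). Sumo3 has 6 transcripts, and NM_019929 took 83.9%, 76.2% and 96.7% of its counts in cKO. The division within Msantd3 thus had no stable order, whereas Hs6st2 and Sumo3 each kept 1 leading transcript in every cKO library.

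**Figure D4:**
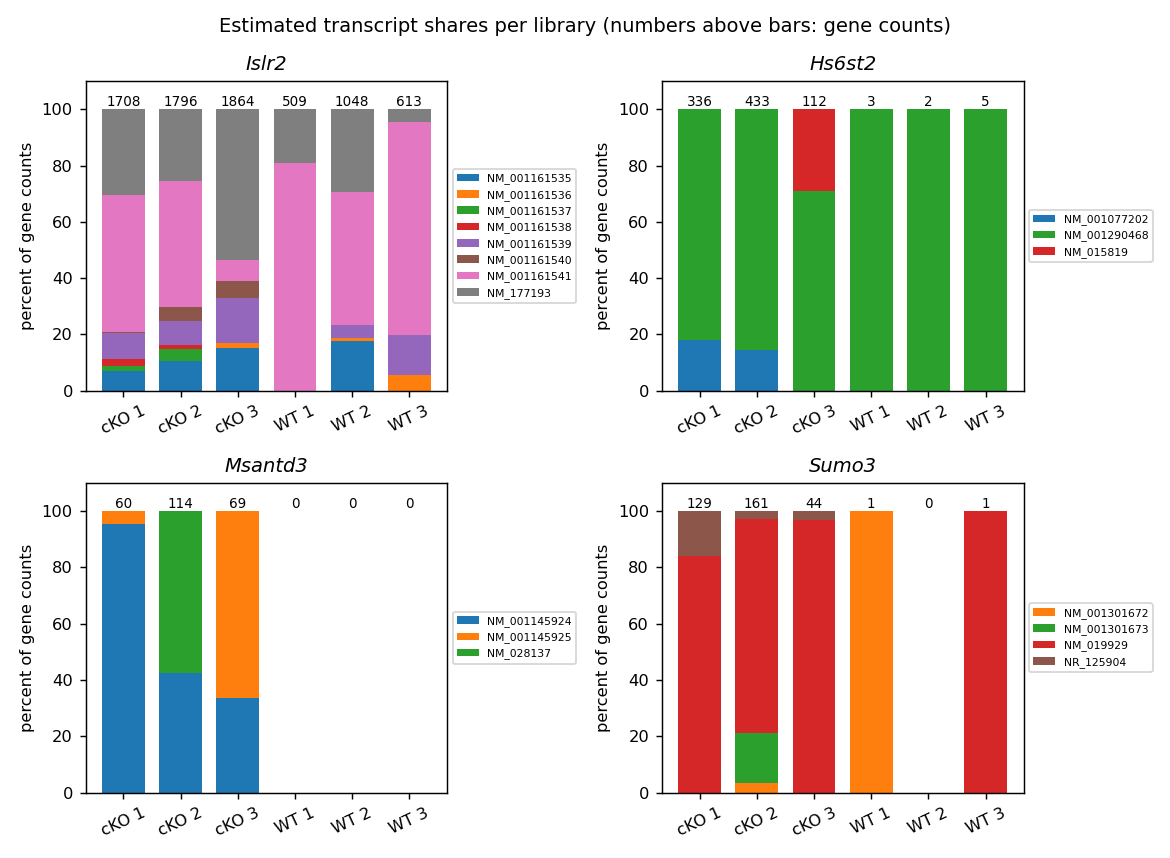
Percent of each gene's counts assigned to each of its transcripts, per library, for the 4 genes with several transcripts, with the gene's count above each bar. Hs6st2 and Sumo3 keep their leading transcript across the cKO libraries, Msantd3 does not, and the WT bars of Hs6st2 and Sumo3 stand on 5 or fewer counts.

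Shared sequence could move counts between genes. Of all stretches of 50 bases in the transcripts, Enc1, Zfp292 and Msantd3 shared none with another gene. Islr2 shared 2.65% with Islr, Fam171a2 0.619% with Grn, Slc25a51 2.44% with repeats in 431 genes, Sumo3 9.34% with the overlapping model Gm49325, and Med4 11.2% with Gm9434. Sumo3 shared none with Sumo2. Islr overlaps Islr2 in the GENCODE models but not in RefSeq, and the antisense gene 1600029O15Rik overlaps Islr2 in both. Islr and 1600029O15Rik were at 0 counts in every library. The library kit does not mark strand, so reads of overlapping genes on opposite strands cannot be told apart. Grn, which encodes progranulin, overlaps Fam171a2 by 68 bases on the opposite strand in the GENCODE models. In RefSeq the genes do not overlap, since Grn ends at 102436809 and Fam171a2 starts at 102436981. Grn had 17, 20 and 37 counts in cKO, against 34, 56 and 39 in WT (log2 difference -0.44, edgeR adjusted p = 0.814).

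None of the nearest genes named here was called by edgeR, beside 0.49% of all tested genes called higher and 0.422% lower. Those with too few counts were not tested. At an unadjusted edgeR p below 0.05, Shb, Tex10 and Tmeff1 were higher in cKO and none was lower. The shares of all tested genes were 7.16% higher and 5.41% lower. Beside Slc25a51, Shb, a signalling adaptor, had 40, 59 and 36 counts in cKO, against 4, 19 and 19 in WT (log2 difference 1.96 ± 0.59 SE, edgeR adjusted p = 0.248). Beside Msantd3, the membrane protein gene Tmeff1 had 234, 357 and 354 counts in cKO, against 81, 191 and 228 in WT (1.20, edgeR adjusted p = 0.387), and Tex10 differed by 0.97 (edgeR adjusted p = 0.380). Slc25a39 beside Fam171a2 (-0.98, adjusted p = 0.472), Ube2g2 beside Sumo3 (-0.23, 0.896) and Itm2b beside Med4 (-0.44, 0.891) had negative edgeR values. Mbnl3 and Usp26, on either side of Hs6st2, were at 0 counts in every library.

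Relatives and pathway partners were taken from 10 lists of 253 genes, the 9 genes left out, of which 95 were tested. None was called by edgeR in either direction, and 6 had a higher and 2 a lower level in cKO at an unadjusted p below 0.05, against 7.16% higher and 5.41% lower of all tested genes. DESeq2 called 2 higher, Klhl9 and Lrrn2, and 2 lower, Klhl5 and Ntrk2, against 4.28% and 3.06% of all its tested genes, and limma-voom called 0, against 0.372% higher and 0.338% lower of all genes. The median log2 difference was 0.16 over the lists and 0.07 over all tested genes. Differences were positive for 59 and negative for 36 of the 95, against 3188 and 2730 of all 5918 tested genes.

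Of the BTB-Kelch relatives of Enc1, 10 of 50 were tested, 6 with a positive and 4 with a negative difference. DESeq2 called Klhl9 higher and Klhl5 lower. Ivns1abp, the most abundant, had 589, 719 and 770 counts in cKO, against 868, 610 and 589 in WT, with overlapping ranges. Klhl9, a 1-exon gene for an adaptor of a ubiquitin ligase, had 253, 414 and 362 counts in cKO, against 0, 7 and 16 in WT, the pattern nearest to Enc1 in its family (log2 difference 5.70 ± 1.22 SE, edgeR adjusted p = 0.143). Klhl25, the closest paralog of Enc1, was counted almost only in cKO replicate 2, with 102 counts.

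Of the leucine-rich repeat and receptor list around Islr2, 6 of 26 were tested, 5 positive and 1 negative. DESeq2 called Lrrn2 higher and the Trk receptor gene Ntrk2 lower. Lrrn2 had 685, 620 and 309 counts in cKO, against 146, 156 and 55 in WT, without overlap (log2 difference 2.48 ± 0.50 SE, edgeR adjusted p = 0.116). Lrrc4b, a synaptic adhesion protein, had 1011, 1076 and 691 counts in cKO, against 2, 699 and 176 in WT. Lingo1 had 230, 463 and 0 counts in cKO, against 0, 219 and 0 in WT. It was 1 of 32 genes at 0 or 1 count in cKO replicate 3, WT replicate 1 and WT replicate 3 but at 10 or more in the other libraries.

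The paralogs of Fam171a2 did not share its pattern in their counts. Fam171a1 had 139, 212 and 33 counts in cKO, against 128, 107 and 54 in WT (log2 difference 0.61 ± 0.69 SE, edgeR adjusted p = 0.814). Fam171b had 299, 387 and 14 counts in cKO, against 372, 350 and 317 in WT (-0.40 ± 0.92 SE, edgeR adjusted p = 0.932). In both, cKO replicate 3 was the lowest of the 6 libraries.

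Of the heparan sulfate genes around Hs6st2, 15 of 42 were tested, 10 positive and 5 negative. Sdc3, a core protein that carries the chains and the most abundant of them, had 1117, 1254 and 994 counts in cKO, against 1346, 1450 and 1274 in WT (log2 difference 0.00 ± 0.20 SE, edgeR adjusted p = 0.9996). Hs6st1, which makes the same modification as Hs6st2, had 192, 187 and 185 counts in cKO, against 94, 114 and 19 in WT, without overlap in CPM (1.69 ± 0.65 SE, edgeR adjusted p = 0.358). Hs6st3 was at 0 in every library.

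Of the mitochondrial carriers of the SLC25 family, 20 of 50 were tested, 10 positive and 10 negative. The ADP/ATP carrier Slc25a4 had 979, 1201 and 518 counts in cKO, against 895, 1231 and 937 in WT (log2 difference 0.08 ± 0.27 SE, edgeR adjusted p = 0.963). Among genes that make or use NAD, 5 of 20 were tested, 1 positive and 4 negative. Parp1, which consumes NAD at DNA breaks, had 174, 210 and 231 counts in cKO, against 529, 411 and 372 in WT. It was lower in cKO without overlap (-0.82 ± 0.38 SE, edgeR adjusted p = 0.445).

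In the SUMO pathway 16 of 25 genes were tested, 13 positive and 3 negative, and 0 had an unadjusted edgeR p below 0.05. Sumo2, the most abundant, had 217, 318 and 64 counts in cKO, against 93, 211 and 120 in WT. This paralog was counted in every WT library (log2 difference 0.76 ± 0.58 SE, edgeR adjusted p = 0.676). Of the other Mediator subunits, 21 of 32 were tested, 13 positive and 8 negative. Med28, the most abundant, had 78, 184 and 85 counts in cKO, against 29, 120 and 97 in WT (0.76 ± 0.61 SE, edgeR adjusted p = 0.694). No relative of Zfp292 or Msantd3 was tested. Rlf had 5, 62 and 2 counts in cKO, against 3, 3 and 0 in WT, and Msantd2 had 0, 26 and 3 counts in cKO, against 2, 56 and 0 in WT. Msantd4 had 0, 0 and 1 counts in cKO, against 0, 83 and 0 in WT.

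**Figure D5:**
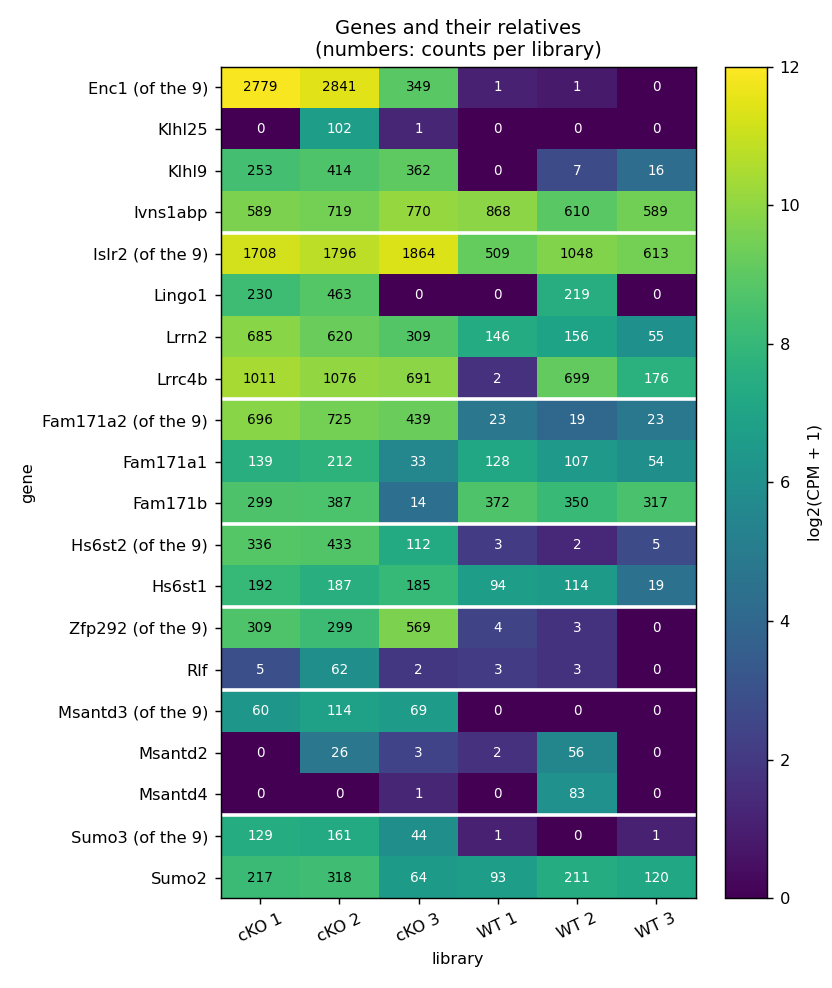
Level of the genes and their relatives in each library, as log2(CPM + 1) in colour, with the count in each cell and white lines between families. Most relatives are counted in both genotypes, and several, such as Lingo1, Klhl25 and Msantd4, are present in some libraries of a group and at 0 in others.

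Genes with the most similar course over the 6 libraries were found by the root mean square difference of centred log2(CPM + 1), with no test. The measure takes in both genotypes, so it largely restates the gap between cKO and WT by which the 9 genes were chosen. Nothing about shared control is read from it. Llph was among the 3 closest for 4 of the 9 genes, Zbtb33, Rab33a and Rpp25l for 3 each. Llph had 73, 81 and 55 counts in cKO and 0 in every WT library, and differed from Msantd3 by 0.25. Enc1 was close to Id2 (0.862) and Neurod2 (1.05). Neurod2 had 1973, 1996 and 1470 counts in cKO and 0 in every WT library. Islr2 had the closest partners, Trim27 (0.223), L1cam (0.236) and Ldb1 (0.241). L1cam had 520, 602 and 398 counts in cKO, against 150, 365 and 203 in WT (log2 difference 1.42 ± 0.33 SE, edgeR adjusted p = 0.171). Within the set, Hs6st2 and Sumo3 were the most alike pair (0.18) and Enc1 and Islr2 the least (4.372).

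Summed levels and calls of cell type markers are given list by list, beside 0.49% of all tested genes called higher and 0.422% called lower by edgeR. Of 12 cortical excitatory neuron markers, 8 were tested, 6 positive and 2 negative, with a median log2 difference of 2.61. Of these 8, edgeR called 1, Neurod2, higher. At an unadjusted p below 0.05 edgeR had 5 higher, DESeq2 called 3 and limma-voom 1, and without Neurod2 the median was 1.59 with 0 called by edgeR and limma-voom, 2 by DESeq2 and 4 at an unadjusted p below 0.05. The summed level of the 12 was 5552 to 6345 CPM in cKO and 422.5 to 968.7 CPM in WT. Neurod1, Neurod2 and Bcl11b were at 0 in every WT library, and each had more than 3 counts over the cKO group. Of 14 general neuron markers, 10 were tested, 8 positive and 2 negative, and edgeR called 0. Their median was 0.23, and the sums were 10370 to 15150 CPM in cKO and 8240 to 9907 CPM in WT. Of the 10, 2 were higher at an unadjusted edgeR p below 0.05, DESeq2 called 2 and limma-voom 0. Tubb3, a tubulin of neurons, was the most abundant (log2 difference 0.87, edgeR adjusted p = 0.162). Syt1 had the largest change, a negative one (-1.08, edgeR adjusted p = 0.619). It had 34, 20 and 24 counts in cKO, against 40, 173 and 23 in WT. Nefm was at 0 in every cKO library and had at most 3 counts over the WT group, so it shows no difference.

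All 6 tested of 10 oligodendrocyte markers were called lower by edgeR, 6 by DESeq2 and 5 by limma-voom. Their sums were 2.00 to 10.8 CPM in cKO and 2552 to 4125 CPM in WT. Mog, Mag, Mobp, Myrf, Enpp6 and Cldn11 were at 0 in every cKO library. Mobp was at 0 in every WT library too, and Mog had at most 3 counts over the WT group, so neither shows a difference. Of 12 astrocyte markers, 9 were tested and 3 called lower by edgeR, 4 by DESeq2 and 3 by limma-voom, with 6 at an unadjusted p below 0.05 in edgeR and sums of 3437 to 3877 CPM in cKO and 12390 to 14140 CPM in WT and none at 0. Of 8 oligodendrocyte precursor markers, 4 were tested and 1 called lower by edgeR, 3 by DESeq2 and 1 by limma-voom, with 3 at an unadjusted p below 0.05 in edgeR. Their sums were 546 to 1314 CPM in cKO and 3897 to 4561 CPM in WT. Sox10 and Matn4 were at 0 in cKO. In WT, Matn4 had 25, 115 and 18 counts, but Sox10 had at most 3 counts over the group and shows no difference. For 8 microglia markers, 4 of them tested, the sums overlapped, at 117 to 339.5 CPM in cKO and 203.3 to 577.5 CPM in WT. For 8 endothelial markers, 3 of them tested, they were 32.0 to 55.1 CPM in cKO and 94.3 to 230.5 CPM in WT. Neither of these lists had a called gene by edgeR, with 0 and 3 lower at an unadjusted p below 0.05, 0 and 1 by DESeq2 and 0 by limma-voom. Without cKO replicate 1 or WT replicate 3 none of the edgeR marker calls remained. DESeq2 and limma-voom were not run with a library left out. The part of these differences in the levels of the 9 genes was not tested.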

How the data were processed

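Deposited for each of the 6 libraries was 1 table of transcripts. Per the submitters' processing notes, the tools were STAR 2.7.10b and RSEM 1.3.3 and the build was mm10. Annotation release: not given in the sources used here. The authors' expected counts, per the file headers, estimate how many fragments came from each transcript and can hold fractions. Deposited TPM values divide by transcript length and by the library's sum. A deposited percent column, per the file headers, gives each transcript's share of its gene's abundance. Other deposited columns, transcript length and effective length per the file headers, gave the mean fragment length.

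Expected counts and TPM were summed per gene, and counts were rounded to whole numbers. CPM used TMM scaling. The comparison of 3 cKO with 3 WT libraries used edgeR 4.0.16 (quasi-likelihood, filterByExpr with a minimum count of 10, Benjamini-Hochberg adjustment over 5918 genes, threshold 0.05) in R 4.3.3, after it was tested on simulated data. All 9 genes passed the filter, several of them only through their cKO libraries. An edgeR SE is the absolute log2 difference over the root of its F statistic, so it restates the p-value. DESeq2 1.42.0, limma 3.58.1 (voom, and log2(TPM + 1)), other scalings and filters, a replicate block and left-out libraries were alternatives. Genes were matched to RefSeq (GRCm38.p6) by accession (24157) or symbol (160), and 94 stayed unmatched. GGACT sites were read in the longest GENCODE transcript of each gene that is paired with a RefSeq accession (GRCm38). The 50-base stretches were read in all such transcripts of each gene. The 9 genes, the lists and the tests were chosen with earlier results of these data known. Named beside the 9 genes are called, most abundant and most changed genes per list, close paralogs, the nearest and overlapping genes and the 3 genes most alike in course. Klhl5 and Ntrk2 were added once their values had been seen. A few genes so chosen are not reported here.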

Additional observations from a re-analysis of the deposited data

How the results depend on the processing

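The differences of the 9 genes stayed positive under every alternative run, which their choice fixes. The count of called genes depended on the setting. Against 29 higher and 25 lower, edgeR with no filter, or with 1 CPM in 3 libraries, called 12 higher and 10 lower, and these 22, with 4 of the 9 genes among them, were all called with the usual filter too. DESeq2 called 250 and 179. Without both replicate 2 libraries edgeR called 0 and 0, with 389 and 351 at an unadjusted p below 0.05, and leaving out 1 library at a time gave 0 to 28 higher and 0 to 14 lower. Among relatives and pathway genes, upper-quartile scaling and limma on log2(TPM + 1) each called 1 higher, Klhl9, and DESeq2 called 2 higher and 2 lower, against 0 and 0 by edgeR, limma-voom and every left-out library. The cause was not tested.

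Without both replicate 2 libraries Islr2 differed by 1.95 on the log2 scale, and the pooled ratios were 178.3 for Slc25a51 and 104.9 for Sumo3, with bounds of 52.2 for Msantd3 and 14.2 for Med4. Upper-quartile scaling gave bounds of 80.8 for Msantd3 and 19.6 for Med4. On log2(TPM + 1), which shrinks low values, Hs6st2 differed by 5.58 and Zfp292 by 5.62. Leaving out 1 library at a time gave 185 to 667 for Slc25a51, 119 to 289 for Sumo3, 57.8 to 103.6 for Msantd3 and 14.0 to 26.6 for Med4, with the lowest value of each without WT replicate 2 and the highest of Slc25a51 without WT replicate 1. For Enc1 it gave 2584 to 5117, and on the log2 scale 1.53 to 1.80 for Islr2, 4.84 to 5.21 for Fam171a2, 6.20 to 7.07 for Hs6st2 and 7.15 to 8.43 for Zfp292, the highest of Zfp292 without WT replicate 1. At 20 CPM the shares of genes with at most 3 counts over the other group were 2.57% (high in cKO) and 1.08% (high in WT).

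The replicate numbers are not shown to pair libraries. Deviations of same-numbered cKO and WT libraries correlated at 0.0638, 0.462 and 0.162 over 5918 genes, below 0.1 for replicate 1. With the replicate block edgeR called 1 gene higher, 1 of the 9, and 0 lower. Depth limits the low end: between 0 and 3 counts a WT level cannot be ranked.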
